A study of Homo sapiens with 8 samples.

Results

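The SMAD and SKI signal transducers are the proteins that carry signals of the TGF-beta family from the receptors at the cell surface to the genome, and the proteins that restrain them there. The 10 genes SMAD1, SMAD2, SMAD3, SMAD4, SMAD5, SMAD6, SMAD7, SMAD9, SKI and SKIL were taken by symbol from the 16796 genes of the files, and all 10 were among the 14895 genes tested. Messenger RNA was sequenced from LX-2 cells, an established line of human hepatic stellate cells (HSCs) in an activated state that serves as a model of liver myofibroblasts. All cultures grew in 5% fetal bovine serum, and for 24 h they received either the DMSO vehicle (control, 4 libraries) or 50 µM OSMI-1 (OGTi, 4 libraries). OSMI-1 is a small molecule inhibitor of O-GlcNAc transferase (OGT), which modifies nuclear and cytosolic proteins with the sugar O-GlcNAc. The labels call the 4 libraries of a group biological replicates and the study's methods call them independent experiments. All came from 1 cell line, and no TGF-beta was listed as added in either group.

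Ligands of the TGF-beta family bind receptor kinases that phosphorylate the receptor-regulated SMADs. TGF-beta and activin receptors act on SMAD2 and SMAD3, while bone morphogenetic protein (BMP) receptors act on SMAD1, SMAD5 and SMAD9 (also known as SMAD8), and both kinds join SMAD4 and enter the nucleus to regulate transcription. SMAD6 and SMAD7 are inhibitory SMADs that block receptors and SMADs, and SKI and SKIL (SnoN) are corepressors that bind SMAD complexes on DNA. In stellate cells this pathway is known as a main driver of myofibroblastic activation and collagen production in liver fibrosis.

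Most of these genes were lower in OGTi cells. The largest fall was that of SMAD9, to 39.3% of its control level, followed by the inhibitory SMADs, with SMAD6 at 56.0% and SMAD7 at 64.0%. SMAD2, SMAD3 and SKIL fell to between 67.8% and 72.6%, and SKI was the single gene that rose, to 128%. SMAD1, SMAD4 and SMAD5 did not pass the test. The q-value is the Benjamini-Hochberg adjusted p of DESeq2, which was given for 14028 of the genes tested. In all, 7 of the 10 genes were called at a q of 0.05 or lower, 6 of them lower and 1 higher. Of all genes with a q, 46.6% were called, 24.0% lower and 22.7% higher. The control and OGTi values did not overlap for 7 of the 10 genes, against 38.0% of all genes tested. The median log2 fold change of the 10 genes was -0.50, against 0.00 over all genes tested. The called members changed by a median of 0.56 on the log2 scale regardless of direction, close to the 0.52 of all called genes.

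The libraries held 24166756 to 28201215 counts, of which the 10 genes made up 0.0458% to 0.0557%. Values below are normalized counts, that is counts divided by a size factor that corrects for library depth. In bulk RNA a change in the share of a kind of cell and a change in RNA per cell cannot be told apart. OGT itself had 5351 to 5977 normalized counts in control and 3534 to 4695 in OGTi libraries (log2 fold change of -0.45 ± 0.09 (SE), q of 1.48e-06). Of 8 stellate cell markers, 6 reached 100 normalized counts, whereas DES and LRAT stayed under 10 in every library, and the summed level was 176902 to 205486 in control and 131492 to 153191 in OGTi libraries. The 4 endothelial markers and the 2 hepatocyte markers measured all stayed under 100, and 2 of 3 cholangiocyte markers (SOX9 and KRT7) exceeded it, at summed levels of 681 to 1151 in control and 955 to 1273 in OGTi libraries. Of the macrophage markers only CD68, which other cells also use, exceeded 100, and the sum of all 4 was 2482 to 4089 in control and 5610 to 9391 in OGTi libraries. The part of these marker levels in the changes of the SMAD and SKI genes was not tested.

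**Figure D1:**
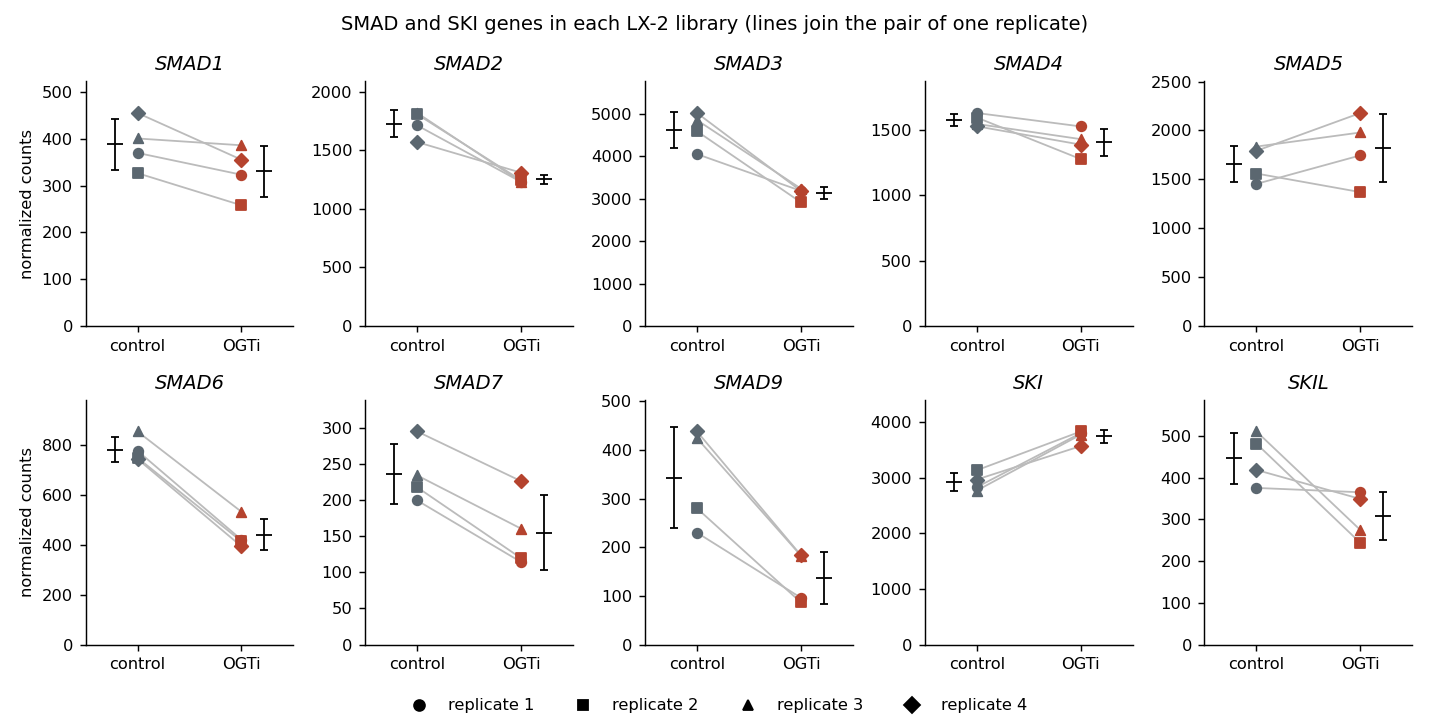
Normalized counts of the 10 genes (vertical axes, each starting at 0) in the 4 control and 4 OGTi libraries, with symbols for replicates, grey lines joining libraries of the same replicate, and black bars for mean ± SD. The OGTi values lie wholly below the control values for SMAD2, SMAD3, SMAD4, SMAD6, SMAD9 and SKIL and wholly above them for SKI.

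The DNA just upstream of the start sites is shown for the inhibitory SMADs, which are known as feedback genes of the pathway. It is also shown for SMAD3 and SMAD9, the receptor-regulated SMAD with the largest estimated fall in each branch. A difference between the falls of SMAD3 and SMAD2 was not detected, as given below. The windows are the 250 bases before a RefSeq start site on GRCh38.p14, written 5′ to 3′ on the strand of the gene, and capitals mark the SMAD-binding letters searched. The window of SMAD6 is chr15:66701986-66702235 (plus strand), that of SMAD7 chr18:48950966-48951215 (minus strand), that of SMAD3 chr15:67065352-67065601 (plus strand) and that of SMAD9 chr13:36920239-36920488 (minus strand). The windows of SMAD6 and SMAD7 end where the gene starts in GENCODE, while those of SMAD3 and SMAD9 lie in an intron of the gene as GENCODE draws it, with an earlier start, and none of the 4 touches an annotated exon.
SMAD6: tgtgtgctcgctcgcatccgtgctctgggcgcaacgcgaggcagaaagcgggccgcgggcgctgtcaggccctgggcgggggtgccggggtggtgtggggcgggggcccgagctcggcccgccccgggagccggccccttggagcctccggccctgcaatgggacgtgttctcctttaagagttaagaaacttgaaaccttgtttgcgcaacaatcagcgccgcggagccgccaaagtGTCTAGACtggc
SMAD7: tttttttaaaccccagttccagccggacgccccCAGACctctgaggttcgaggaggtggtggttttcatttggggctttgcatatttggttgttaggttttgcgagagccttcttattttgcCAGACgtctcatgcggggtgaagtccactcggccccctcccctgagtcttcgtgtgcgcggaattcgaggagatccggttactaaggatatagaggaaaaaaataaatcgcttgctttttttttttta
SMAD3: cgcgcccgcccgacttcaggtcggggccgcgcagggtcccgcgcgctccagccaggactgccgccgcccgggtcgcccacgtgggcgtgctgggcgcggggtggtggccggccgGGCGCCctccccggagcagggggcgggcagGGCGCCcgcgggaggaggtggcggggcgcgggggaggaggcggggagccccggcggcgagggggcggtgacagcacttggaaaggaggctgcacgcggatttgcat
SMAD9: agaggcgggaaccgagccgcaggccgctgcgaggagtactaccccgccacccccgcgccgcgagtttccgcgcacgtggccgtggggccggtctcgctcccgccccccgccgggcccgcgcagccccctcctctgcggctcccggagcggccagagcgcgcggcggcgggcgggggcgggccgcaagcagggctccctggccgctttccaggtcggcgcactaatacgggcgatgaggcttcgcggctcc

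Searched on both strands were the palindrome GTCTAGAC, the shorter element CAGAC (on the other strand GTCTG), and GGCGCC, a GC-rich element bound by SMADs of the BMP branch. None of these letters contains another. The palindrome was held by the window of SMAD6, 12 bases before the start site, and by 0.182% of the 35116 RefSeq promoter windows. CAGAC occurred 217 and 128 bases before the first start site of SMAD7, and in 38.0% of all windows. GGCGCC occurred 136 and 106 bases before the start site of SMAD3 shown above, and in 16.4% of all windows. The window of SMAD9 held none of the 3, which says only that these letters are not in this stretch. RefSeq windows were matched for 9 of the 10 genes, 20 windows in all. Among them CAGAC was also found upstream of SMAD1, SKIL, further SMAD3 starts and a further SMAD7 start. GGCGCC was also found upstream of SMAD1, SMAD2, SMAD4 and SKIL. Windows with such letters belonged to genes that fell and to genes that were not called.

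Both SMADs of the TGF-beta and activin branch fell. SMAD2 (chromosome 18, 47808957 to 47931146, minus strand, GENCODE 44 on GRCh38) had 1711, 1806, 1817 and 1568 normalized counts in control replicates 1 to 4 and 1228, 1243, 1229 and 1307 in OGTi replicates 1 to 4. Every OGTi value lay below every control value, and the OGTi libraries were the more tightly grouped. The means were 1725 ± 115 and 1252 ± 37.6 (SD, n = 4 each), and the log2 fold change was -0.46 ± 0.09 (q of 1.23e-06). SMAD3 (chromosome 15, 67063763 to 67195173, plus strand), the SMAD that binds DNA directly downstream of TGF-beta, had 4056, 4596, 4858 and 5026 in control and 3188, 2917, 3241 and 3186 in OGTi libraries. The groups stood apart, with OGTi replicate 2 the lowest of its group, at a distance from the 3 others. From 4634 ± 424 to 3133 ± 146, its log2 fold change was -0.56 ± 0.08 (q of 8.60e-12). Reads of SMAD2 were shared with other alignments, as its counts were fractional in all 8 libraries, whereas those of SMAD3 were whole in each.

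The balance between the pair was compared as the ratio of their counts within a library, which does not depend on scaling between libraries. SMAD3 over SMAD2 was 2.37, 2.55, 2.67 and 3.20 in control and 2.60, 2.35, 2.64 and 2.44 in OGTi replicates 1 to 4. The groups overlapped, and the ratio changed by -0.10 on the log2 scale, to 0.933 of its control level (two-sided exact permutation test, p of 0.429, q of 0.536 over the 5 ratios compared). A difference between the falls of SMAD2 and SMAD3 was therefore not detected.

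The SMADs of the BMP branch did not move alike. SMAD9 (chromosome 13, 36844831 to 36920887, minus strand) had 229.9, 279.9, 424 and 438 normalized counts in control and 96.0, 86.4, 183 and 183 in OGTi libraries. Replicates 3 and 4 were above replicates 1 and 2 in both groups, and the groups did not overlap. The means of 343 ± 104 and 137 ± 53.2 gave a log2 fold change of -1.35 ± 0.17 (q of 8.62e-15). Within pairs the log2 ratios were -1.26, -1.70, -1.22 and -1.26, so the fall was of like size in each pair while the level was not. SMAD1 (chromosome 4, 145481194 to 145559176, plus strand) had 370.2, 327, 401 and 456 in control and 324, 258, 386 and 356 in OGTi libraries. Its value was below the control in each of the 4 pairs, but the groups overlapped. The log2 fold change of -0.24 ± 0.13 was not called (q of 0.144), with a 95% interval of -0.50 to 0.03. SMAD5 (chromosome 5, 136132845 to 136188747, plus strand) had 1454, 1559, 1835 and 1792 in control and 1745, 1369, 1979 and 2179 in OGTi libraries. It was above the control in 3 of 4 pairs and below it in replicate 2, with overlapping groups. Its log2 fold change was 0.12 ± 0.10 (q of 0.325), with an interval of -0.07 to 0.31. A q above 0.05 does not show that SMAD1 and SMAD5 were unchanged. The 3 BMP SMADs are close paralogs, and counts of SMAD9 were fractional in 6 libraries, those of SMAD5 in 2 and those of SMAD1 in none. SMAD1 and SMAD5 are overlapped by antisense genes. The counting was set to use strand, and how well it separated their reads was not tested.

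The ratio of SMAD1 plus SMAD5 to SMAD2 plus SMAD3 compared the 2 BMP SMADs that were not called with both SMADs of the other branch, and left out SMAD9. It was 0.316, 0.295, 0.335 and 0.341 in control and 0.469, 0.391, 0.529 and 0.564 in OGTi libraries. Every OGTi library had a higher ratio than every control library. The ratio rose by 0.59 on the log2 scale, 1.51-fold (two-sided exact permutation test, p of 0.0286, q of 0.0476), and with 4 libraries on each side no smaller p is possible. An exact test within the 4 replicate pairs cannot go below 0.125, which it reached here (q of 0.208), so this ratio is called only when the pairing is not used. With SMAD9 added to SMAD1 and SMAD5, an alternative chosen after the data were seen, the rise was 1.37-fold, and the highest control (0.407) and the lowest OGTi library (0.412) were close together. It is a ratio of counts that are not corrected for transcript length, so its level says nothing about which branch had more transcripts. Like the other ratios, it was made of the same counts as the single-gene tests, in which SMAD2 and SMAD3 were called lower. Its p is therefore not separate support for a shift between branches.

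**Figure D2:**
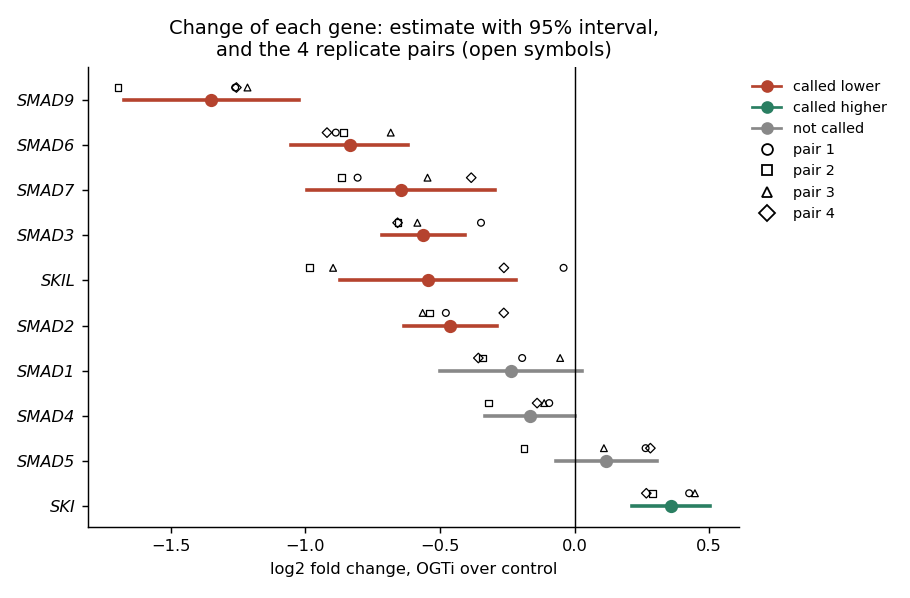
Log2 fold change of OGTi over control for each gene (filled points, with bars for the 95% interval of DESeq2) and for each of the 4 replicate pairs (open symbols). SMAD9 lies farthest left at -1.35, SKI is the single called gene right of 0, and the pairs of SKIL spread from -0.98 to -0.04.

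SMAD4 (chromosome 18, 51028528 to 51085045, plus strand), the partner that both branches share, had 1632, 1597, 1548 and 1530.0 normalized counts in control and 1529, 1279, 1431.5 and 1389 in OGTi libraries. The groups did not overlap, though the lowest control and the highest OGTi library were about equal. The means were 1577 ± 46.4 and 1407 ± 104, and the log2 fold change of -0.17 ± 0.09 was not called (q of 0.10002), with a 95% interval of -0.33 to 0.00. No alternative fit brought it past the threshold.

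The inhibitory SMADs fell in all 4 pairs. SMAD6 (chromosome 15, 66702236 to 66782849, plus strand), which acts mainly against the BMP branch, had 777, 749.6, 855 and 745 normalized counts in control and 420.4, 414, 533 and 394 in OGTi libraries. The groups were far apart, and replicate 3 was the highest in both. From 782 ± 50.9 to 440.1 ± 62.7, its log2 fold change was -0.84 ± 0.11 (q of 4.93e-13). SMAD7 (chromosome 18, 48919853 to 48950965, minus strand), which recruits ubiquitin ligases to TGF-beta receptors, had 199.7, 218, 234 and 295 in control and 114, 119.5, 161 and 226 in OGTi libraries. Replicate 4 was the highest in both groups, and its OGTi value exceeded 2 of the control values, so the groups overlapped although each pair fell. The means of 237 ± 41.5 and 155 ± 51.8 gave a log2 fold change of -0.64 ± 0.18 (q of 0.00102). The promoter windows of both genes are printed above.

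Each inhibitory SMAD was also set against some of the SMADs it restrains. SMAD9, which fell more than SMAD6, was left out of the first ratio, and SMAD2 out of the second. The first ratio therefore does not describe SMAD6 against the whole BMP branch. SMAD6 over SMAD1 plus SMAD5 was 0.426, 0.397, 0.382 and 0.331 in control and 0.203, 0.254, 0.225 and 0.155 in OGTi libraries. The ratio was lower in every OGTi library than in any control and fell by 0.89 on the log2 scale, to 0.539 of its control level (exact permutation p of 0.0286, q of 0.0476, and within pairs an exact p of 0.125, q of 0.208). SMAD7 over SMAD3 was 0.0492, 0.0474, 0.0483 and 0.0588 in control and 0.0358, 0.0410, 0.0495 and 0.0710 in OGTi libraries. These groups overlapped, the ratio was lower in 2 pairs and higher in 2, and the mean difference of -0.09 on the log2 scale had an exact permutation p of 0.8 and was 0.03 without replicate 1. A change of SMAD7 relative to SMAD3 was not detected.

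The corepressors moved in opposite directions. SKI (chromosome 1, 2227388 to 2310213, plus strand) had 2827, 3131, 2766 and 2964 normalized counts in control and 3798, 3828, 3771.5 and 3566 in OGTi libraries. All OGTi values exceeded all control values. The means rose from 2922 ± 162 to 3741 ± 119, a log2 fold change of 0.36 ± 0.07 (q of 6.59e-06). SKIL (chromosome 3, 170357342 to 170396835, plus strand), itself a known target of TGF-beta signalling, had 375, 481, 510.2 and 418 in control and 365, 243, 274 and 349 in OGTi libraries. The groups were separate by a narrow margin, between control replicate 1 and OGTi replicate 1. From 446 ± 61.0 to 308 ± 58.4, its log2 fold change was -0.54 ± 0.17 (q of 0.00358). This fall rested on replicates 2 and 3, whose pairs had log2 ratios of -0.98 and -0.90, against -0.04 and -0.26 for replicates 1 and 4. Without replicate 2 the log2 fold change was -0.40 (q of 0.0952), and without replicate 3 it was -0.43 (q of 0.0720), so that SKIL was no longer called.

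SKIL over SKI was 0.133, 0.154, 0.184 and 0.141 in control and 0.0960, 0.0635, 0.0726 and 0.0978 in OGTi libraries. The ratio was lower in all 4 pairs, without overlap between the groups. It fell by 0.90 on the log2 scale, to 0.535 of its control level (exact permutation p of 0.0286, q of 0.0476, and within pairs an exact p of 0.125, q of 0.208).

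**Figure D3:**
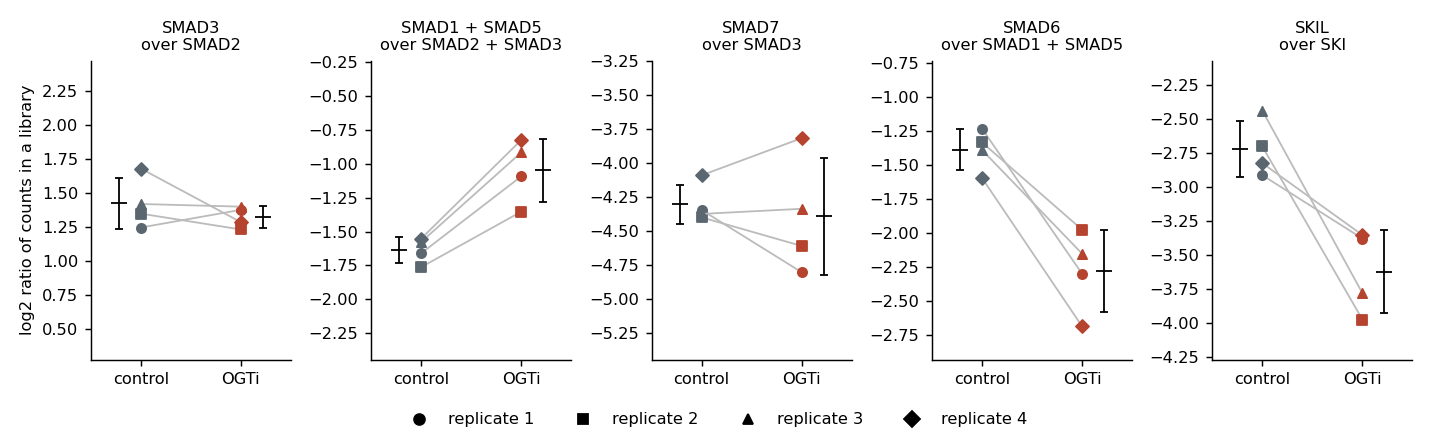
Log2 of 5 ratios of normalized counts within a library (vertical axes, all spanning the same width) in control and OGTi cells, with symbols for replicates, grey lines for pairs and black bars for mean ± SD (n = 4 each). The ratio of SMAD1 plus SMAD5 to SMAD2 plus SMAD3 rose 1.51-fold, SMAD6 over SMAD1 plus SMAD5 and SKIL over SKI fell to 0.539 and 0.535, and the 2 ratios to SMAD2 or SMAD3 alone overlapped between groups.

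Levels of different genes were compared per kilobase of the longest annotated transcript, as normalized counts per kilobase. In control cells SMAD3 was the highest (717 ± 65.6), followed by SKI (480.4 ± 26.6), SMAD5 (237 ± 26.2), SMAD4 (176 ± 5.19), SMAD6 (150.4 ± 9.80) and SMAD1 (118 ± 16.4). The libraries of these 6 genes did not overlap between neighbours in the order. SMAD7 (70.9 ± 12.4), SMAD9 (61.7 ± 18.7), SKIL (59.3 ± 8.10) and SMAD2 (49.8 ± 3.32) came last, and each of them overlapped with the next. In OGTi cells SKI (615 ± 19.5) stood above SMAD3 (485 ± 22.6) without overlap, SMAD1 (100.5 ± 16.7) and SMAD6 (84.7 ± 12.1) overlapped, and SMAD9 (24.7 ± 9.56) was the lowest, below SMAD2 (36.1 ± 1.09). These levels depend on the length used. The longest and reference transcript of SMAD2 is 34626 bases long, against a median of 935 bases over its 12 annotated transcripts. With median transcript lengths SMAD2 moved from rank 10 to rank 4 and SKI ranked above SMAD3 in control cells, so that neither order can be taken as the order of transcript numbers.

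**Figure D4:**
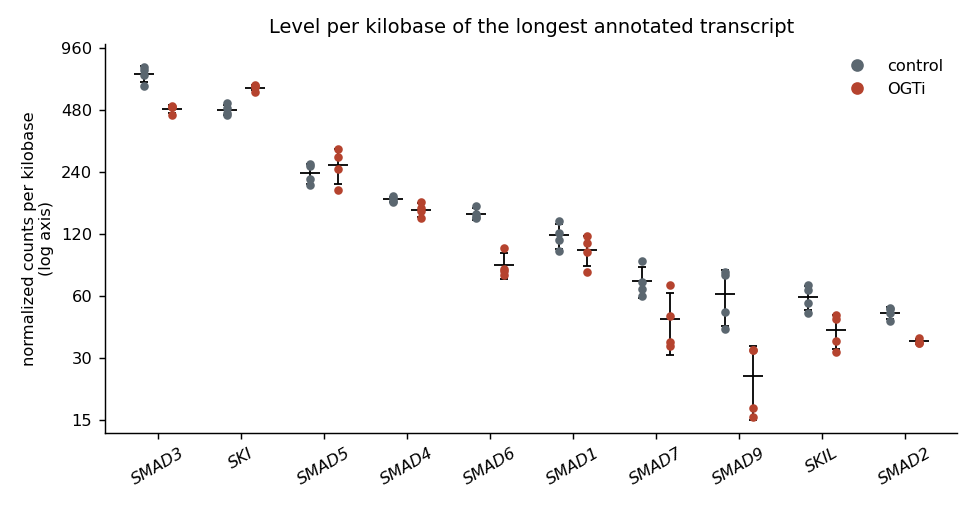
Normalized counts per kilobase of the longest annotated transcript (log axis) for each control and OGTi library, with black bars for mean ± SD (n = 4 each) and genes ordered by control mean. SMAD3 leads in control cells at 717 and SKI in OGTi cells at 615, and SMAD9 goes from 61.7 to 24.7.

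Some members are neighbours in the genome. SMAD6 and SMAD3 lie on the same strand of chromosome 15 with 281 kb between them, and both fell. Within 500 kb of this stretch 12 other genes were tested. LCTL among them had no q, and 4 were called, 2 lower and 2 higher. Over all genes with a q, 46.6% were called. SMAD2, SMAD7 and SMAD4 lie on chromosome 18, with 989 kb between SMAD2 and SMAD7, and within 500 kb of SMAD7 the gene DYM was called higher (0.26 ± 0.10, q of 0.0163) and CTIF was not called. Within 500 kb of SMAD4, 4 other genes were tested, with ME2 called higher (0.62 ± 0.11) and MEX3C called lower (-0.46 ± 0.11). No other gene was tested within 500 kb of SMAD2. The neighbours were looked up after the values of the members were seen.

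Further genes of the pathway were taken from 8 lists by role, 104 genes in all, of which 97 were tested and 94 had a q. Of these, 37 were called lower, 20 higher and 37 not, and the median log2 fold change of the 97 tested was -0.11. Of all genes with a q, 24.0% were called lower and 22.7% higher, and the median over all genes tested was 0.00. The counts of the single lists are descriptions to be read against these shares. Among the 10 ligand genes tested, 5 were lower and 2 higher (median -0.61). TGFB2, a TGF-beta ligand, had 7648 to 12284 normalized counts in control and 564 to 1056 in OGTi libraries, a log2 fold change of -3.54 ± 0.09. The ligand genes TGFB1 and TGFB3, named after their values were seen, were not called. TGFB1 had 4809 to 5757 normalized counts in control and 5120 to 5681 in OGTi libraries (-0.02 ± 0.07, q of 0.811). TGFB3 was low in both groups (0.34 ± 0.33, q of 0.430). MSTN, which encodes the SMAD2 and SMAD3 activating ligand myostatin, went from 1115 to 1872, with control replicate 3 far above the others, to between 34.7 and 116 (-4.06 ± 0.31, q of 1.37e-36). INHBA, which encodes the activin A subunit, went from 220.5 to 284 in control to 59.1 to 101 in OGTi libraries (-1.64 ± 0.21, q of 1.54e-13). The 2 ligands that rose, named here after their values were seen, were GDF11 (0.47 ± 0.07, q of 8.88e-11) and BMP6, which had at most 1.95 normalized counts in a control library and 12.0 to 46.2 in OGTi libraries (q of 5.70e-06).

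Of 11 receptor genes with a q, 4 were lower and 2 higher (median of the 12 tested, -0.10), where 46.6% of all genes with a q were called. Without replicate 2, and likewise without replicate 3, 1 was lower and 1 higher, and without replicate 4 the number higher was also 1. ACVR1, a type I receptor for BMPs, rose from between 517 and 647 to between 696 and 847 (0.43 ± 0.12, q of 0.000803). ACVRL1, a type I receptor known from endothelium, was low in control (30.1 to 58.5) and lower still in OGTi libraries (4.01 to 22.1, -1.78 ± 0.51, q of 0.00168). BMPR1A, another BMP receptor, changed by -0.33 ± 0.11 (q of 0.00927) and lost its call without replicate 2 (q of 0.145) or replicate 3 (q of 0.0635). The receptors that TGF-beta itself binds, named after their values were seen, were not called, with log2 fold changes of -0.20 ± 0.09 for TGFBR1 (q of 0.0605, 95% interval of -0.38 to -0.02), which was called lower in edgeR with the block (q of 0.0479) and without replicate 1 (q of 0.0430) or replicate 4 (q of 0.0414), and -0.06 ± 0.09 for TGFBR2 (q of 0.639, interval of -0.23 to 0.12).

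The 13 ubiquitin enzymes that act on SMADs and receptors were mostly not called, with 2 lower, 2 higher and a median of 0.11, and 1 higher without replicate 2 or replicate 3. The 2 that fell were the ligases SMURF1 (-0.49 ± 0.08, q of 2.48e-08) and SMURF2 (-0.44 ± 0.08, q of 1.13e-06), which mark SMADs and, with SMAD7, receptors for degradation. USP11, a deubiquitinase of TGF-beta receptors, rose by 0.26 ± 0.07 (q of 0.000704). Among 13 genes for SMAD anchors, phosphatases and nuclear transport 7 were lower and 2 higher (median -0.33), but none was higher without replicate 2 or replicate 3 or in edgeR without the block, and 1 was higher without replicate 4 or in edgeR with the block. CTDSP2, a small phosphatase that acts on SMADs, had 6077 to 7201.5 normalized counts in control and 3051 to 3477 in OGTi libraries (-0.97 ± 0.07, q of 1.86e-41). Its paralog CTDSP1 went from 1746 to 2119 in control to 936 to 1150.1 in OGTi libraries (-0.90 ± 0.10, q of 6.66e-18). CTDSPL (-0.57 ± 0.10, q of 1.11e-07) and PPM1A (-0.33 ± 0.10, q of 0.00467), named after their values were seen, fell too, but PPM1A lost its call without replicate 2 (-0.22, q of 0.126). The import receptor IPO8, which carries SMADs into the nucleus, changed by -0.50 ± 0.08 (q of 6.00e-10).

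Of 23 genes for nuclear partners with a q, 11 were lower and 1 higher (median of the 24 tested, -0.28). RUNX2, a transcription factor that works with SMADs, went from 581 to 786 in control to 269.6 to 346 in OGTi libraries (-1.19 ± 0.12, q of 5.50e-22). CITED2, a transcriptional coregulator, changed by -0.64 ± 0.07 (q of 1.52e-20), with control replicate 1 the lowest control. RBL1, which encodes the SMAD3 partner p107, changed by -0.66 ± 0.08 (q of 3.26e-14). The paralogous SMAD corepressors TGIF1 (0.69 ± 0.11, q of 1.21e-08) and TGIF2 (-0.86 ± 0.13, q of 2.08e-10), named after their values were seen, moved in opposite directions, as SKI and SKIL did. Of the 4 relatives of SKI listed only SKOR1 was tested, at 31.0 to 37.9 normalized counts in control and 23.1 to 57.7 in OGTi libraries, and it was not called (-0.02 ± 0.39, q of 0.973).

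Genes known as targets of the pathway had no common direction. Of 15 TGF-beta target genes tested, 7 were higher, 6 lower and 2 not called (median 0.22). JUNB, which encodes an AP-1 transcription factor, rose from between 402 and 508 to between 1003 and 1422 (1.37 ± 0.12, q of 4.04e-30). ANGPTL4, which encodes a secreted lipase inhibitor, rose from between 2.92 and 13.5 to between 55.2 and 219 (3.46 ± 0.48, q of 9.19e-12). TAGLN, a smooth muscle actin-binding protein gene, fell from between 20704.5 and 36563 to between 12642 and 16404 (-1.06 ± 0.18, q of 4.82e-08).

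Of 8 BMP target genes with a q, 4 were higher, 2 lower and 2 not called (median of the 9 tested, 0.64). ATOH8, a transcription factor gene, fell from between 839 and 1035 to between 125 and 248 (-2.39 ± 0.16, q of 6.15e-51). MSX1, a homeobox gene, rose from between 452 and 536 to between 762 and 1019.9 (0.84 ± 0.12, q of 1.57e-11). ID1, an inhibitor of DNA binding that BMPs induce directly, had 780.3, 556, 816 and 821 in control and 998, 1019, 1515 and 1376 in OGTi libraries. It was higher in every OGTi library, with control replicate 2 below the other controls, and its log2 fold change was 0.72 ± 0.11 (q of 7.63e-10). ID2 (1.18 ± 0.27, q of 4.05e-05) and ID3 (-0.40 ± 0.12, q of 0.00271), named after their values were seen, went opposite ways, and ID3 was not called in 5 of the 10 alternative fits, which leaves 1 BMP target called lower.

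**Figure D5:**
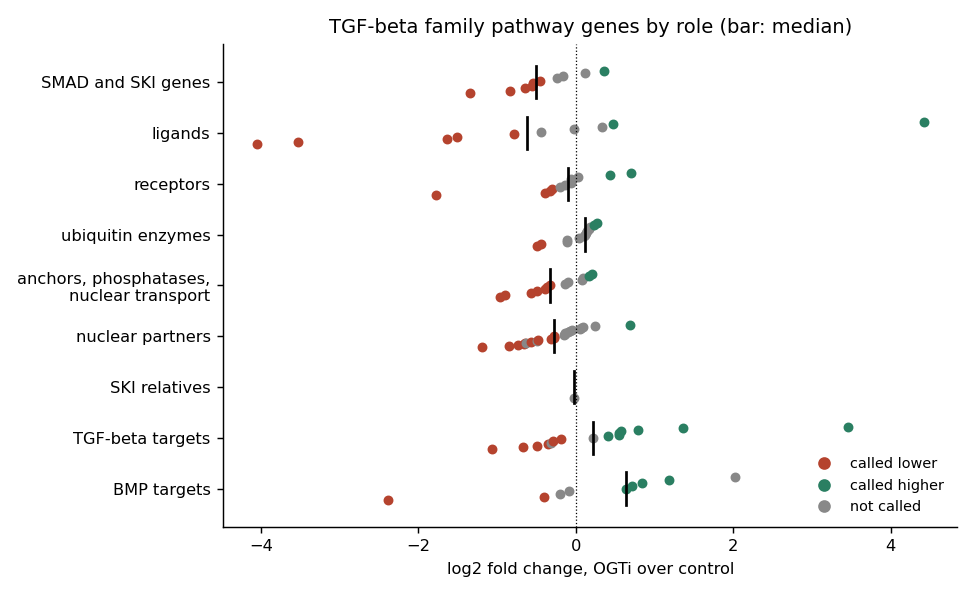
Log2 fold change of OGTi over control (horizontal axis) for each gene tested of the SMAD and SKI genes and of 8 lists of pathway genes by role, coloured by call, with a bar at each median. The medians are -0.50 for the SMAD and SKI genes, -0.61 for ligands, 0.22 for TGF-beta targets and 0.64 for BMP targets, and each list of more than 1 gene holds genes on both sides of 0.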

How the data were processed

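RNA libraries were stranded and made after oligo dT enrichment, and both ends of each fragment were read. The authors aligned reads to hg38 with Bowtie2 2.3.5.1 and counted them per gene with RSEM 1.3.1, with a GENCODE annotation. The authors' deposited files, 1 per library, hold expected counts, in which a read with several alignments is shared between genes. In each library 12.9% to 16.3% of the genes had a fractional value. A deposited comparison table of fold changes and p-values made by the authors with DESeq2 1.36.0 was not used.

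Expected counts were rounded, genes with a total under 10 were left out, and DESeq2 1.42.0 (Wald test, R 4.3.3) was fitted to the 8 libraries with median-of-ratios size factors and replicate number as a block, as in the study's methods. Intervals are normal 95% intervals. Alternatives were the fit without the block, edgeR 4.0.16 (quasi-likelihood, TMM) with and without it, DESeq2 with TMM factors, other filters on low counts, leaving out each replicate, and other transcript lengths. The code was tested on simulated data. The pairing comes from the methods. Same-numbered libraries deviated together from their group means, with Pearson correlations across 10994 genes of 0.372, 0.391, 0.165 and 0.327 for replicates 1 to 4, but control replicate 3 was closer to OGTi replicate 4 (0.343), and control replicate 4 also correlated with OGTi replicate 3 (0.255). Ratios were compared with a two-sided exact permutation test of log2 values, adjusted over 5 ratios.

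The members and the gene lists were chosen with earlier results of these data known. Named were the 10 members, OGT, ID1, 1 further target gene that is not reported here and, per list, up to 3 called genes with the largest absolute Wald statistic and 1 direction in all 4 pairs. The genes BMPR1B, SKOR2, DACH2, ID4, ALB, TTR, HNF4A and EPCAM were not found by symbol among the 16796 genes. BMP2, DACH1 and NOX4 were below the count filter. Coordinates are from GENCODE 44, and sequences from RefSeq (GRCh38.p14), with no window for SKI.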

Additional observations from a re-analysis of the deposited data

Results flagged for a closer look

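In each group of 4 libraries the gap between the highest or lowest value and its neighbour was set against the range of the group. Of 76 groups tested, over the named genes and the 5 ratios, 4 had a gap share above Dixon's 95% critical value, and chance flags about 1 in 20 groups, which is 3.8 of 76.

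SMAD3 had 2917 normalized counts in OGTi replicate 2, below the 3186 to 3241 of the other OGTi libraries. The other 3 cases were not SMAD or SKI genes. MSTN had 1872 normalized counts in control replicate 3, above the 1115 to 1158 of the other controls. CITED2 had 16399.8 in control replicate 1, below 19618 to 19918. ID1 had 556 in control replicate 2, below 780.3 to 821. The causes were not tested.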

How the results depend on the processing

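Of the 10 SMAD and SKI genes, 9 kept their direction and their side of the threshold under all 10 alternative fits, and 0 reversed. SKIL lost its call without replicate 2 or 3, so that the number of genes called ranged from 6 to 7 when a replicate was left out. Without the replicate block DESeq2 called 7 members, as with it, and 6307 genes in all against 6541, and leaving the block out changed no call of a member. The log2 fold change of SMAD9 ranged from -1.40 to -1.24 and that of SMAD7 from -0.74 to -0.57 without one of the replicates. Of the 5 ratios only SMAD7 over SMAD3, which was not called, changed direction (0.03 without replicate 1). With 3 against 3 libraries the smallest exact p is 0.1, so leaving out a replicate gives no test of them. With the replicate block, as an exact test within pairs added after the data were seen, the differences of 0.59 (SMAD1 plus SMAD5 over SMAD2 plus SMAD3), -0.89 (SMAD6 over SMAD1 plus SMAD5) and -0.90 (SKIL over SKI) each had a q of 0.208 and were not called, since 4 pairs cannot give a p below 0.125. Of the 97 pathway genes, 16 lost and 5 gained their call under some alternative and 0 reversed.

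Levels per kilobase depended on transcript length. With median in place of longest lengths the control means became 2677 for SMAD3, 6523 for SKI, 2708 for SMAD5, 404 for SMAD4, 558 for SMAD6, 680.3 for SMAD1, 274 for SMAD7, 181 for SMAD9, 261 for SKIL and 1845 for SMAD2. With the MANE Select transcript, an alternative chosen after the data were seen, SMAD6 had 204 and ranked above SMAD4. The other members moved by less than 1 SD, though SKIL (62.3) then ranked just above SMAD9 (61.7). Over all 8 libraries SMAD7 had the fewest counts of the members, and it had the largest standard error (0.18 on the log2 scale).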
